A study of Mus musculus with 6 samples.

Results

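*Txnip*, *Arrdc4*, *Arrdc3*, *Arrdc2*, *Mlx*, *Mlxip* and *Mlxipl* were followed in mouse hearts with and without the muscle form of pyruvate kinase. The 7 genes were chosen by name, as the glucose-sensing factors MondoA and ChREBP with their partner Mlx, and the α-arrestin genes that include their best-known targets. All 7 were among the 13809 genes of the deposited table, and all 7 were among the 13804 genes tested. Total RNA was sequenced from hearts at embryonic day 18.5 (E18.5), with 3 libraries from wild-type (WT) embryos and 3 from *Pkm1*-KO embryos. Per the study's methods the tissue was ventricular, and the KO line carries a small CRISPR/Cas9 deletion in the *Pkm1*-specific exon, made in BDF1 hybrid zygotes, that brings in a premature stop. The deletion is in the germline and so is present in every cell type of the heart. In bulk tissue, fewer cells of a type and less RNA per cell cannot be told apart.

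MondoA (encoded by *Mlxip*) and ChREBP (encoded by *Mlxipl*) are basic helix-loop-helix leucine zipper factors that bind DNA as dimers with Mlx. They are known to move onto their targets when hexose phosphates such as glucose 6-phosphate build up in the cell, and MondoA is the form usually described in muscle. *Txnip* and *Arrdc4* are their classical targets, and both proteins are α-arrestins that lower glucose uptake, in part by drawing glucose transporters into the cell. *Arrdc3* and *Arrdc2* encode related α-arrestins, which bind Nedd4-family ubiquitin ligases, and Arrdc3 is known for acting on β-adrenergic receptors.

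Promoter sequences from RefSeq (GRCm38.p6) were found for all 7 genes, at 10 annotated start sites, each running from 250 bases before the start to 50 after it. The bases upstream of *Txnip*, *Arrdc4* and *Arrdc2* are shown because these genes carry the contrast in the data: a classical target that fell, a classical target that passed the test in neither direction, and the α-arrestin with the largest fall. Capitals mark, on either strand, the relaxed carbohydrate response element (a pair of CACGNG boxes with 5 bases between them), the E-box CACGTG, the CCAAT box (ATTGG on the other strand) and the FOXO core GTAAACA.
*Txnip*, plus strand, chr3:96557807-96557956: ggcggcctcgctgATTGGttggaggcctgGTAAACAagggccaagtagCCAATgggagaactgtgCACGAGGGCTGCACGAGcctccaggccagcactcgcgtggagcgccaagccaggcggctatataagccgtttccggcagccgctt
*Arrdc4*, minus strand, chr7:68749239-68749488: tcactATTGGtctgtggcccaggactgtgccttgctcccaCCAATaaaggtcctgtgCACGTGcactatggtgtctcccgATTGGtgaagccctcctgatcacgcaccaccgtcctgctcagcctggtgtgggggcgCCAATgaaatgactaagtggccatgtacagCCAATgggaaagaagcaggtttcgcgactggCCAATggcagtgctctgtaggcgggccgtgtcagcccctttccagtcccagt
*Arrdc2*, minus strand, chr8:70839721-70839970: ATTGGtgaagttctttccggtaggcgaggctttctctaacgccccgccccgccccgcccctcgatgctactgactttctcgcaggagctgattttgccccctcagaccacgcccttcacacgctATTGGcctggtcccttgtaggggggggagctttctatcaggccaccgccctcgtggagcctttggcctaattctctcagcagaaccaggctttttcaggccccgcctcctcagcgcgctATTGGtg

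Of the 7 genes, *Txnip* was the only one whose promoter held the relaxed carbohydrate response element, as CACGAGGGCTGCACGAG from 85 to 69 bases before the start. That element was present in 16 of 32851 promoters (0.0487%), of 15 genes. None of the 23 tested carbohydrate-responsive targets read below was among those 15. The search therefore does not show that a gene without a match lacks a response element. Of the 9 of these genes that were tested, 2 fell, *Txnip* and *Rbbp4*, 2 rose, *Fem1b* and *Fnip1*, and 5 did not pass the test. The shares over all genes tested were 15.7% called lower and 14.6% called higher, and 9 genes are too few to compare with them. The E-box was present in 7.15% of promoters, and among the 7 genes it lay 193 bases before the *Arrdc4* start, 40 before the *Mlx* start and 98 before the second *Mlxipl* start. The CCAAT box was present in 37.4% of promoters and at 8 of the 10 starts of these genes. *Arrdc4* held 6 CCAAT boxes in this window, a number reached by 26 promoters (0.0791%), *Arrdc2* held 3 and *Txnip* held 2. A match describes the letters in the window and does not show that a factor binds there.

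**Figure D1:**
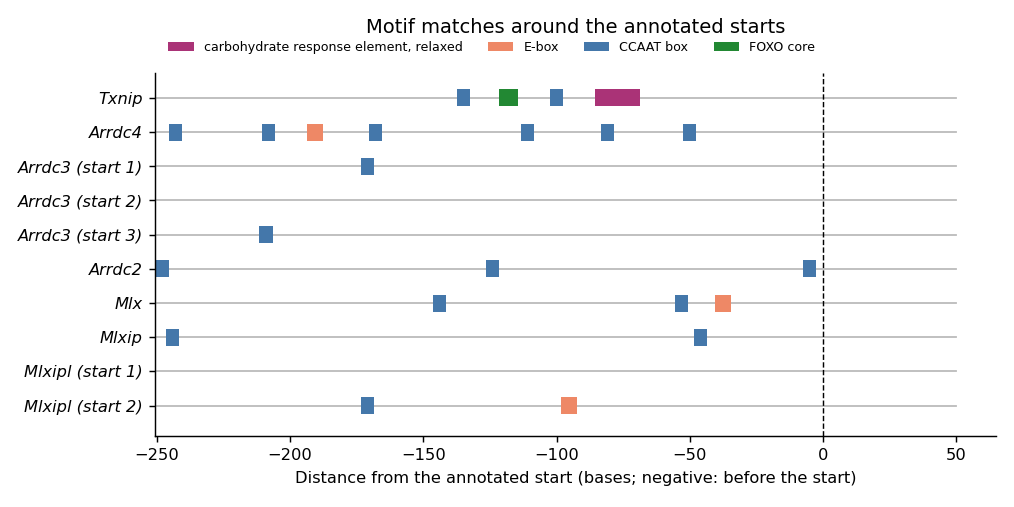
Positions of the searched motifs around each annotated start of the 7 genes, in bases from the start (negative before it), with 1 line per start site. *Txnip* carries the only relaxed carbohydrate response element, and *Arrdc4* carries 6 CCAAT boxes and 1 E-box.

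The targeted gene was checked first. *Pkm* encodes both the *Pkm1* and the *Pkm2* form of pyruvate kinase. It ran from 1294 to 1366 CPM (counts scaled to a common library size by TMM) in WT. In KO it ran from 530 to 549 CPM, a log2 fold change of -1.28. Gene counts do not separate the *Pkm1* and *Pkm2* transcripts. Libraries held 15567624 to 19875546 counts, so that 3 counts corresponded to 0.151 to 0.193 CPM. The table names columns by genotype only, so the letters a to c after WT or KO only tell columns apart, and p-values measure the spread between these libraries. Same-genotype libraries differed by a chi-square of 1.56 to 1.88 per degree of freedom, except that WT c differed from WT a by 3.75 and from WT b by 3.23. Even the closest pair, WT a and WT b, differed by more than sampling noise, and all 6 were counted as separate libraries. With this many counts every pair does so, and the difference cannot show that libraries came from separate embryos. The spread between same-genotype libraries was small, with a common biological coefficient of variation of 3.42% in the edgeR fit, and the p-values rest on it. *Xist* stood at 5.26 ± 0.50 CPM (SD, n = 3) in WT and 2285 ± 47.6 in KO, and 4 Y-linked genes had 0 counts in every KO library, so sex and genotype cannot be told apart. All 7 genes are autosomal, and the part of sex in their changes was not tested.

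In KO hearts 5 of the 7 genes fell, 0 rose and 2 did not pass the test (edgeR's quasi-likelihood test, Benjamini-Hochberg adjusted p under 0.05). The fall was largest for the α-arrestins *Arrdc2* and *Arrdc3*, smaller for *Txnip* and *Mlxipl*, and smallest for *Mlxip*. Across all genes tested 15.7% were called lower and 14.6% higher, and the median log2 fold change of the 7 genes was -0.36, against 0.00 for all genes tested. At an unadjusted p under 0.05 the count of higher members was also 0, as it was with DESeq2, edgeR's exact test and limma voom. KO libraries lay wholly below WT libraries for 5 of the 7 genes, against 21.4% of all genes, and wholly above for 1, against 21%, or 42.4% of all genes in either direction. Without WT c, the library that stood apart, the log2 fold changes were -0.39 for *Txnip*, -1.05 for *Arrdc3*, -1.60 for *Arrdc2*, -0.24 for *Mlxip* and -0.27 for *Mlxipl*. With library totals alone as the scaling, all genes split into 1527 lower and 2911 higher, in place of 2168 and 2011, and the median of all genes moved to 0.05.

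**Figure D2:**
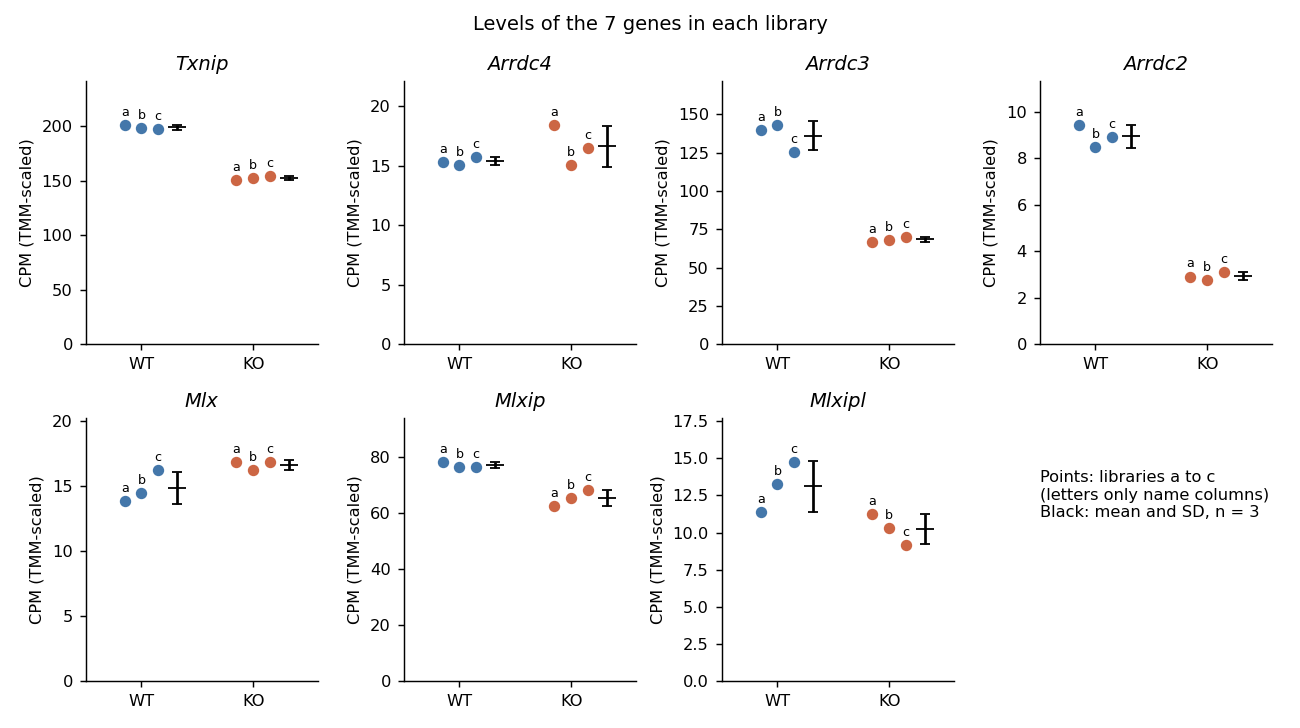
Level of each gene in CPM (TMM-scaled, axes from 0) in the 3 WT and 3 KO libraries, as points lettered by library, with the mean and SD (n = 3) in black. *Arrdc2*, *Arrdc3*, *Txnip* and *Mlxip* are separated between the groups, *Arrdc4* overlaps, and *Mlx* and *Mlxipl* nearly meet.

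*Mlxip* (chromosome 5, 123394798 to 123457932, plus strand, GRCm38) encodes MondoA. Its level was 78.2, 76.3 and 76.3 CPM in WT and 62.4, 65.2 and 68.2 CPM in KO. Every KO library was below every WT library, and the mean went from 76.9 ± 1.08 to 65.3 ± 2.90 CPM (SD, n = 3). The log2 fold change was -0.24 (SE 0.0469, adjusted p = 0.000329 edgeR's quasi-likelihood test, Benjamini-Hochberg). It exceeded the threshold in every alternative run, with adjusted p up to 0.00750 under edgeR, DESeq2 or limma.

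*Mlxipl* (chromosome 5, 135089890 to 135138382, plus strand) encodes ChREBP, best known from liver and fat. It was measured at 11.4, 13.3 and 14.8 CPM in WT and at 11.2, 10.3 and 9.18 CPM in KO. The groups were separated by little, since WT a lay just above KO a, and the mean went from 13.1 ± 1.72 to 10.2 ± 1.03 CPM (SD, n = 3). Its log2 fold change of -0.36 had a 95% interval of -0.58 to -0.13 and an adjusted p of 0.0133 (edgeR's quasi-likelihood test, Benjamini-Hochberg). Without KO c the change was -0.28 and the adjusted p was 0.0960 in the same edgeR fit, which ends the call.

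*Mlx* (chromosome 11, 101087277 to 101092207, plus strand) encodes the partner that both factors need. Its level was 13.8, 14.5 and 16.2 CPM in WT and 16.8, 16.2 and 16.9 CPM in KO. WT c and KO b were nearly equal, and the other WT libraries were lower than every KO library. The log2 fold change was 0.17 with a 95% interval of -0.0032 to 0.35 and did not pass the test (adjusted p = 0.130, edgeR's quasi-likelihood test, Benjamini-Hochberg). Without WT c it was 0.23 (adjusted p = 0.0455), and with library totals alone it was 0.22 (adjusted p = 0.0482), both by the same edgeR test. Its exons share 385 bases with *Psmc3ip* on the opposite strand, a gene measured at 4.27 ± 0.0605 CPM in WT and 4.32 ± 0.209 in KO.

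*Txnip* (chromosome 3, 96557957 to 96561883, plus strand) encodes the thioredoxin-interacting protein and is a strongly responsive MondoA target. Its counts were 3473, 3879 and 3006 in WT and 2845, 2409 and 2868 in KO, or 201, 198 and 197 CPM against 151, 152 and 154 CPM. The libraries of each genotype lay close together, and the groups were far apart relative to that spread. The mean fell from 198.9 ± 1.99 to 152.3 ± 1.60 CPM (SD, n = 3), a change of -23.4% or -0.39 on the log2 scale (95% interval -0.45 to -0.32, adjusted p = 1.14e-09, edgeR's quasi-likelihood test, Benjamini-Hochberg). Of all genes tested, 6.82% had a lower log2 fold change. Its exons share 606 bases with *Gm15441* on the opposite strand, and the strand setting of the counting is not given in the sources used here.

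*Arrdc4* (chromosome 7, 68736995 to 68749241, minus strand) is the other classical target of the pair. It was measured at 15.3, 15.1 and 15.8 CPM in WT and at 18.4, 15.03 and 16.5 CPM in KO. The groups overlapped, KO b being the lowest and KO a the highest of the 6 libraries. The log2 fold change was 0.12 with a 95% interval of -0.06 to 0.30, and the adjusted p was 0.323 (edgeR's quasi-likelihood test, Benjamini-Hochberg). That interval lies wholly above the interval of *Txnip*. Without KO a the log2 fold change of *Arrdc4* was 0.04.

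*Arrdc3* (chromosome 13, 80883384 to 80896042, plus strand) stood at 140, 143 and 125 CPM in WT and at 66.5, 68.3 and 70.1 CPM in KO. WT c, the lowest of its group, still exceeded the highest KO library 1.79 times. The log2 fold change was -0.997 (SE 0.0470, adjusted p = 2.41e-15, edgeR's quasi-likelihood test, Benjamini-Hochberg), a level 49.8% lower in KO. Only 1.28% of the genes tested had a lower log2 fold change.

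*Arrdc2* (chromosome 8, 70835129 to 70839720, minus strand) was the least abundant of the 7 genes in CPM. Its counts were 163, 166 and 136 in WT and 55, 44 and 58 in KO, which gave 9.44, 8.47 and 8.94 CPM against 2.91, 2.78 and 3.11 CPM. The groups did not overlap, with a ratio of 2.72 between the lowest WT and the highest KO value. The log2 fold change was -1.60 (95% interval -1.89 to -1.31, adjusted p = 9.64e-10, edgeR's quasi-likelihood test, Benjamini-Hochberg), and 0.369% of the genes tested had a lower one.

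**Figure D3:**
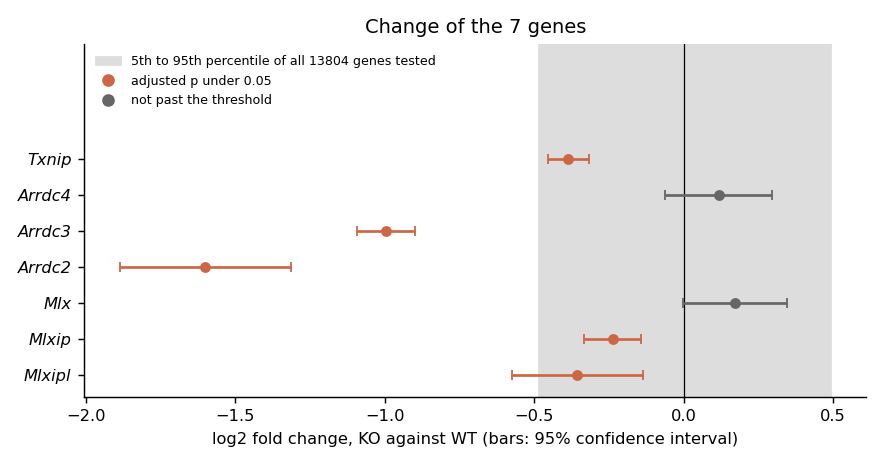
Log2 fold change of each gene, KO against WT, with its 95% confidence interval from edgeR. The grey band spans the 5th to 95th percentile of all 13804 genes tested, -0.48 to 0.49, and *Arrdc2* and *Arrdc3* lie outside it.

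Levels were compared between genes per kilobase of annotated exon. *Txnip* was the most abundant in WT, at 63.7 ± 0.636 CPM per kilobase (SD, n = 3), followed by *Arrdc3* at 21.7 ± 1.49. *Mlxip* at 9.24 ± 0.130 and *Mlx* at 7.43 ± 0.617 came next, so the MondoA transcript was 3rd in order. *Arrdc4* at 3.81 ± 0.0830 was followed by *Arrdc2* at 2.77 ± 0.150 and *Mlxipl* at 2.37 ± 0.310, whose WT ranges overlapped. In KO, *Arrdc2* was last at 0.908 ± 0.0520 CPM per kilobase, below *Mlxipl* at 1.85 ± 0.186. *Mlx* at 8.34 ± 0.188 and *Mlxip* at 7.84 ± 0.348 overlapped in KO, and their order there turned with the longest annotated transcript as the length. That length also raised the WT level of *Arrdc3* to 32.9 and that of *Mlxipl* to 3.63 CPM per kilobase, and left the order of the 7 genes in WT as given.

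The summed level of the 4 α-arrestin genes went from 92.0 ± 1.82 to 64.7 ± 0.731 CPM per kilobase (SD, n = 3). *Txnip* made up 69.2% ± 0.960 of that sum in WT and 75.4% ± 0.459 in KO. The share of *Arrdc3* was 23.6% ± 1.22 in WT and 16.8% ± 0.315 in KO, and that of *Arrdc2* was 3.01% ± 0.158 and 1.40% ± 0.0653. The sum of the 3 factor genes was 19.0 ± 0.821 in WT and 18.02 ± 0.258 in KO, with *Mlx* at 39.0% ± 1.53 and 46.2% ± 0.676 of it.

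Ratios within a library do not depend on its scaling. The log2 ratio of *Arrdc4* to *Txnip* counts was -3.69 ± 0.0377 in WT and -3.20 ± 0.156 in KO (SD, n = 3), and every KO library was above every WT library. That of *Arrdc3* to *Txnip* was 0.61 lower in KO, and that of *Arrdc2* to *Txnip* 1.22 lower, each without overlap. The ratio of *Mlx* to *Mlxip* was 0.41 higher in KO, also without overlap, whereas that of *Mlxipl* to *Mlxip* overlapped. For each of the 4 ratios without overlap the exact two-sided permutation test gave p = 0.1, the smallest that 3 against 3 libraries allow, and 0.125 after Benjamini-Hochberg adjustment over 5 ratios, so this test could not pass 0.05.

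**Figure D4:**
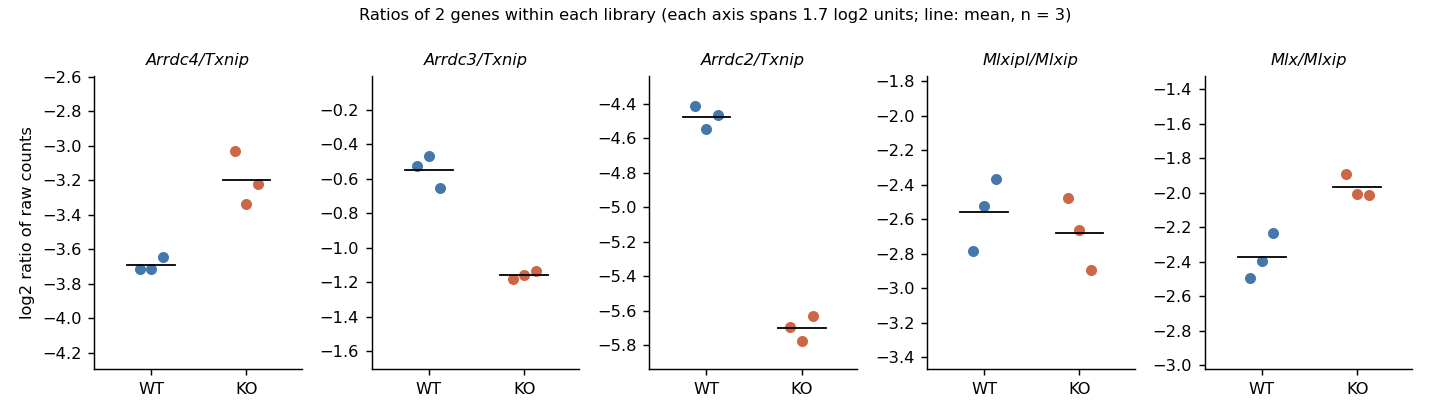
Log2 ratio of counts between pairs of the genes in each library, WT and KO, with the mean as a line (n = 3). Of the 5 ratios, 4 do not overlap between the groups, and that of *Mlxipl* to *Mlxip* does.

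Genes of the same pathway were then read from lists by role, beside the 15.7% of all genes tested that were called lower and the 14.6% called higher. In the wider Max and Mlx network, which competes for partners and E-boxes, 3 of 9 tested genes fell and 2 rose. *Myc* fell from 54.3 ± 2.46 to 23.3 ± 0.937 CPM (log2 fold change -1.22, adjusted p = 6.96e-15), while *Max* was at 31.6 and 27.9 CPM (log2 fold change -0.17, adjusted p = 0.0848, both edgeR's quasi-likelihood test, Benjamini-Hochberg). *Max* passed the threshold at -0.22 without WT a and at -0.25 without KO a, and was at -0.09 without WT c. *Mxd1* and *Mxd4*, which encode Max partners, fell by 0.27 and 0.26 on the log2 scale, and *Mxi1* and *Mga* rose by 0.16 and 0.14.

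Among 23 tested carbohydrate-responsive targets other than the α-arrestins, 5 fell and 6 rose, with a median log2 fold change of 0.03, and 30.3% of all genes were called in either direction. Of the genes of fatty acid synthesis and modification, *Scd1* fell by 0.67, *Acly* by 0.25, *Fasn* by 0.21 and *Acaca* by 0.12 on the log2 scale, and the elongase *Elovl6* rose by 0.34. *Acacb*, *Scd2* and *Me1* did not pass the test, with log2 fold changes of 0.03, -0.02 and -0.01. *Pdk4*, an inhibitor kinase of pyruvate dehydrogenase, fell by 0.56. Those that rose included *Pfkfb3*, which makes the activator of phosphofructokinase, with a log2 fold change of 1.05 from 21.4 ± 1.88 to 43.9 ± 1.80 CPM (SD, n = 3). *Ppp1r3b*, a glycogen-targeting phosphatase subunit, rose by 0.81, and the repressors *Bhlhe40* and *Bhlhe41* rose by 0.62 and 0.41. The known targets therefore did not move in 1 direction, *Txnip* falling while *Pfkfb3* rose.

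Of the genes that act on hexose phosphates, the signal that MondoA reads, 9 of 20 tested rose and 4 fell. Among those that rose, *Hk2* and *Pfkfb3* also belong to the carbohydrate-responsive targets above, so the lists are not separate. *Hk2*, a hexokinase that makes glucose 6-phosphate, rose from 242.9 ± 3.97 to 309.8 ± 4.86 CPM (log2 fold change 0.35), and *Pfkl* rose by 0.34. *Gfpt2*, of the hexosamine branch, fell by 0.38 and *Pgm1* by 0.31. *Slc2a1*, a glucose transporter that Txnip is known to act on, rose from 86.4 ± 3.12 to 138.5 ± 2.96 CPM (log2 fold change 0.68, adjusted p = 3.33e-13, edgeR's quasi-likelihood test, Benjamini-Hochberg). *Slc2a3*, *Slc2a6* and *Slc2a13* also rose, the last of them a transporter of inositol, so that 4 of 10 tested transporters rose and 0 fell. No transporter was called lower at an unadjusted p under 0.05, nor with DESeq2, edgeR's exact test or limma voom, but 1 was without WT b. The 4 that rose became 2 with DESeq2, without WT a and without KO c. *Slc2a4*, the insulin-responsive transporter, did not pass the test, at 82.6 and 81.9 CPM (log2 fold change -0.01, and 0.0348 with library totals alone).

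Lists of known partners of the α-arrestins were read next. In the thioredoxin list 2 of 13 tested genes fell (15.4%), near the 15.7% of all genes called lower. These were *Txnrd1*, by 0.14, and *Prdx5*, by 0.11. *Txn1*, whose product Txnip binds, was at 73.6 and 75.5 CPM (log2 fold change 0.04). Of the 9 Nedd4-family ligases 0 passed in either direction with edgeR's quasi-likelihood test, with 1 ligase lower and 1 higher before adjustment, 0 with DESeq2 and limma voom, and 1 higher with edgeR's exact test. The other arrestins, *Arrdc1*, *Arrb1* and *Arrb2*, had 0 calls with edgeR, DESeq2 and limma voom and 0 at an unadjusted p under 0.05. *Adrb1*, a β-adrenergic receptor of the kind Arrdc3 acts on, fell from 34.3 ± 2.44 to 20.7 ± 1.65 CPM, 1 of 2 genes that fell among 9 in its list.

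*Arrdc2* and *Arrdc3* are also known to respond to FOXO factors and glucocorticoids. In the list that pools those regulators and responsive genes 12 of 22 fell and 3 rose, with a median log2 fold change of -0.20. Of all genes tested, 15.7% were called lower and 14.6% higher. Neither *Arrdc2* nor *Arrdc3* held the FOXO core at an annotated start. That core was present in only 3.65% of promoters, so its absence does not set these genes apart from most others. The search also does not show that they lack a FOXO site elsewhere. Of the factor and α-arrestin genes followed here, only *Txnip* held the core, 121 bases before its start. *Irs2* fell from 124 to 32.02 CPM, and *Klf9*, *Zbtb16* and *Per1* fell by 1.66, 1.62 and 1.38 on the log2 scale. The 3 that rose were *Foxo1* itself, by 0.25, *Fbxo32*, by 0.18, and the repressor *Bcl6*, by 0.62. Of the other genes in the list, *Cited2* fell by 1.23, and *Sesn1* was at 69.7 to 75.9 CPM in WT and 54.2 to 56.3 in KO. *Tsc22d3* fell by 0.17 with overlapping groups. *Klf15* and *Nr3c1* did not pass the test, with log2 fold changes of 0.09 and -0.0044.

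**Figure D5:**
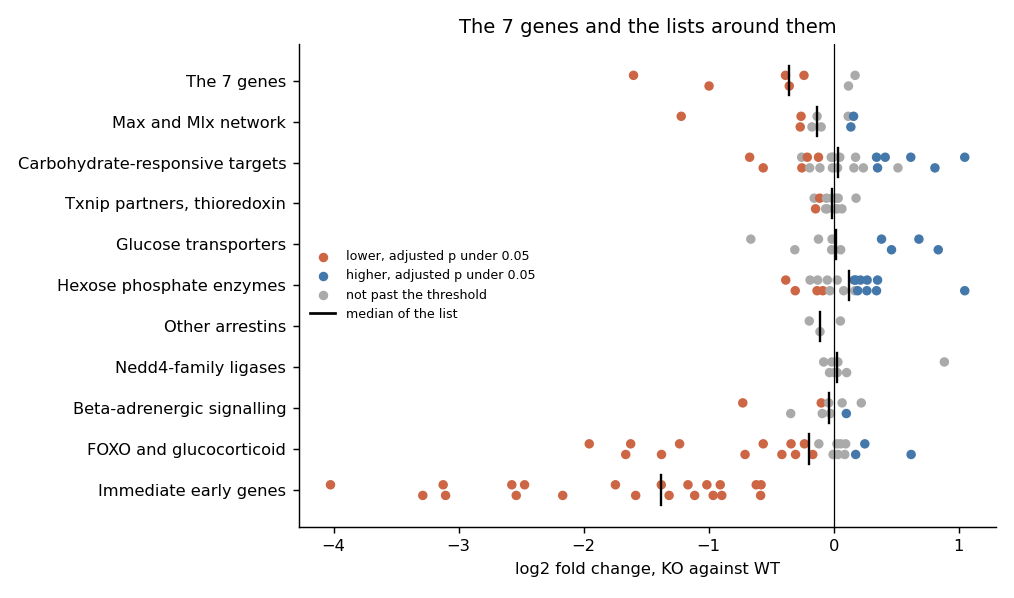
Log2 fold change of each tested gene, KO against WT, by list, coloured by the result of the test, with the list's median as a black line. The 21 tested immediate early genes all lie below 0.

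Other gene groups differed between the same libraries. All 21 tested immediate early genes, which respond within minutes to stimulation and handling, fell, with a median log2 fold change of -1.38 and a summed level of 1546 to 1662 CPM in WT and 578 to 583 in KO. Ventricular markers summed to 131660 to 135778 CPM in WT and 124088 to 125562 in KO (8 of 13 lower, 2 higher), and atrial markers to 638 to 643 and 1048 to 1073 (3 of 7 higher). Those 3 were *Nppa*, *Myl4* and *Myl7*, whereas *Nr2f1*, *Nr2f2*, *Stard10* and *Tbx5* did not pass the test. Fibroblast markers summed to 4254 to 4294 and 3929 to 4003 (6 of 10 lower), endothelial markers to 1368 to 1372 and 1323 to 1339, epicardial markers to 149 to 150 and 163 to 176, and immune markers to 42.6 to 45.1 and 40.2 to 47.0. Brown fat and liver markers summed to 29.0 to 35.6 in WT and 15.3 to 16.9 in KO (3 of 4 lower, the liver genes *Alb*, *Apoa1* and *Afp*). *Cidea*, the only brown fat marker tested, ran from 6.02 to 6.77 CPM in WT and from 5.37 to 6.20 in KO. Erythroid markers summed to 33.5 to 35.5 and 35.8 to 43.0 (3 tested, 1 lower and 1 higher), with no haemoglobin gene among those tested. The share of *Rn45s*, a ribosomal RNA precursor, was 2.21% to 2.48% in WT and 2.70% to 2.79% in KO. The part of these differences in the falls of *Txnip*, *Arrdc2* and *Arrdc3* was not tested.

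Among the genes whose levels ran most like *Txnip* over the 6 libraries, of 13507 with at least 1 CPM on average, were *Cited2*, *Sidt2*, *Dnajb4* and *Cyp51*, each with a Pearson r of 0.999 on log2 CPM. These points share their libraries and fall into 2 groups, and 150 genes exceeded 0.99, so the likeness describes a common step between genotypes. For *Arrdc4* the most alike were *Atg12*, *Pdcd2*, *Tmem131*, *Impdh2* and *Gpt*, with r from 0.968 to 0.989 and 0 genes over 0.99.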

How the data were processed

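Per the study's methods, rRNA-depleted total RNA was sequenced, and the submitters' processing notes name cutadapt 1.18, HISAT2, StringTie and mm10. The authors deposited 1 table of raw gene counts, with the columns of their own comparison: a log2 fold change, a log2 CPM, a p-value and an adjusted p-value, none of which were used. The counting program is not given in the sources used here. The members and lists were chosen with earlier results of these data known.

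Counts were tested with edgeR 4.0.16 (TMM, filterByExpr, which left out 5 genes, quasi-likelihood test, Benjamini-Hochberg over 13804 genes, threshold 0.05) in R 4.3.3. DESeq2 1.42.0, limma 3.58.1 voom, edgeR's exact test, other scalings and filters, genes on X and Y left out, each library left out in turn, and WT a and WT b, the closest WT pair, summed as 1 library were the alternatives. The script was tested on simulated data. Log2 CPM used a prior count of 2. Exon lengths came from GENCODE annotation of GRCm38. Besides the 7 genes, *Pkm* and 6 fixed genes, the text names up to 4 genes per list and direction past the threshold whose average reached 1 CPM, and the 5 most alike to *Txnip* and to *Arrdc4*, of which 1 is not reported here. Other genes, such as overlapping genes, library checks, holders of a motif and list members outside this rule, were named after their values were seen. A protein comparison was not analysed here.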

Additional observations from a re-analysis of the deposited data

How the results depend on the processing

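Across 15 alternatives the log2 fold changes ran from -0.39 to -0.34 for *Txnip*, -1.05 to -0.95 for *Arrdc3*, -1.65 to -1.55 for *Arrdc2* and -0.27 to -0.19 for *Mlxip*, each past the threshold throughout, and from 0.04 to 0.18 for *Arrdc4*, never past it. Leaving out 1 library at a time gave 0.12 to 0.23 for *Mlx*, -0.45 to -0.27 for *Mlxipl*, 0 to 1 members called higher, 4 to 5 called lower, and -0.0228 to 0.0055 for *Slc2a4*. *Mlx* passed the threshold without WT c and with library totals alone (0.22), the 1 member then called higher. *Mlxipl* lost the call without KO c (-0.28). *Slc2a4* turned to 0.0348 with library totals alone and to 0.0055 without KO a. The causes were not tested. Glucose transporters called higher went from 4 to 2 with DESeq2, without WT a and without KO c, and 1 was called lower without WT b. Hexose phosphate genes called lower went from 4 to 2 with DESeq2, with library totals alone, without KO a and without KO c. Max and Mlx network genes called higher went from 2 to 1 with DESeq2, without WT a, without KO a and without KO b. Without KO c the FOXO and glucocorticoid genes called higher went from 3 to 1. Over the alternatives, thioredoxin genes called lower ran from 0 to 3 against 2, β-adrenergic genes called lower from 1 to 3 against 2 and called higher from 0 to 2 against 1. With library totals alone, edgeR's exact test or KO c left out, 1 Nedd4-family ligase was called higher, and with library totals alone so was 1 thioredoxin gene. With WT a and WT b summed as 1 library, the members counted 5 lower and 0 higher. Calls of *Mxd4*, *Mxi1*, *Txnrd1*, *Prdx5*, *Slc2a6*, *Slc2a13*, *Gfpt1*, *Pfkm*, *Pgm2l1*, *Bcl6*, *Fbxo32*, *Gnas* and *Adcy6* were each lost in at least 1 alternative. No paired analysis was possible because count columns are marked by genotype without a replicate number.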
